A study of Mus musculus with 8 samples.

Results

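The genes described here encode the subunits of AMPA receptors (Gria1 to Gria4) and kainate receptors (Grik1 to Grik5). These 9 genes were taken by name from the 55573 Ensembl gene IDs of the count files, and all 9 had enough reads to be tested. RNA came from fluorescence-sorted cells of mouse cerebral cortex and was sequenced in 8 libraries of 4 groups with 2 libraries each. The groups were KO at 18 months, WT at 18 months, KO at 6 months and WT at 6 months. KO mice had the genotype PV-Cre/tdTomato/Dnmt1 loxP2 and WT mice the genotype PV-Cre/tdTomato/Dnmt1 wild-type, so that WT carried the Cre driver and the red reporter too, and all were on a C57BL/6 background. Cre comes from the locus of parvalbumin, a calcium-binding protein of fast-spiking interneurons, and removes exons 4 and 5 of Dnmt1, which encodes the methyltransferase that maintains DNA methylation. The floxed line came from a B6;129Sv stock. Per the design text, cells were pooled from 6 WT and 6 KO mice and the replicates were technical. The p-values below therefore measure the spread between libraries that may come from the same pool, and not the spread between animals.

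AMPA receptors carry most of the fast excitatory current in the brain. They assemble from the products of Gria1 to Gria4, and an edited GluA2 subunit, made from Gria2 messages changed by RNA editing, keeps calcium from passing the channel. Parvalbumin interneurons are known for AMPA receptors with little GluA2 and much GluA4. Kainate receptors assemble from the low-affinity subunits GluK1 to GluK3 (Grik1 to Grik3) and the high-affinity subunits GluK4 and GluK5 (Grik4 and Grik5), which need a low-affinity partner to form a working channel. Both families are also transcribed in glia: astrocytes and oligodendrocyte precursors are known to carry AMPA receptors.

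The sorted RNA held many reads of glial marker genes. Library totals ran from 6008175 to 13551218 counts. Pvalb had only 6 reads in the 8 libraries together, with 2 as the most in one, so the cells the sort was meant for were barely visible by their defining gene. Summed CPM (counts per 1e+06 counts, scaled between libraries by the TMM method) ranged over the libraries from 15013 to 45099 for 16 oligodendrocyte markers, from 4831 to 13930.5 for 16 astrocyte markers, from 1812 to 4395 for 12 markers of oligodendrocyte precursors and from 606 to 1314 for 11 markers of GABA neurons. For 15 markers of parvalbumin interneurons the range was 562 to 686 CPM. Of that sum 470.1 to 667 CPM came from Kcna1, Sox6, Erbb4, Nek7 and Ppargc1a, which other cells transcribe as well, and the other 10 markers came to 12.3 to 102 CPM. Lhx6, Pthlh and Akr1c18 had 10, 5 and 3 reads in all. Lists for excitatory neurons, microglia, endothelial cells and pericytes summed to at most 414, 196, 129 and 2932 CPM in a library. No marker on the 10 lists was at 0 in all libraries. Dnmt1 itself stood at 75.4 CPM in KO and 80.9 CPM in WT at 18 months (edgeR adjusted p = 0.281), and at 76.2 CPM in KO and 100.8 CPM in WT at 6 months (edgeR adjusted p = 1e-04). In bulk RNA such as this, fewer cells of a type and less RNA per cell cannot be told apart.

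**Figure D1:**
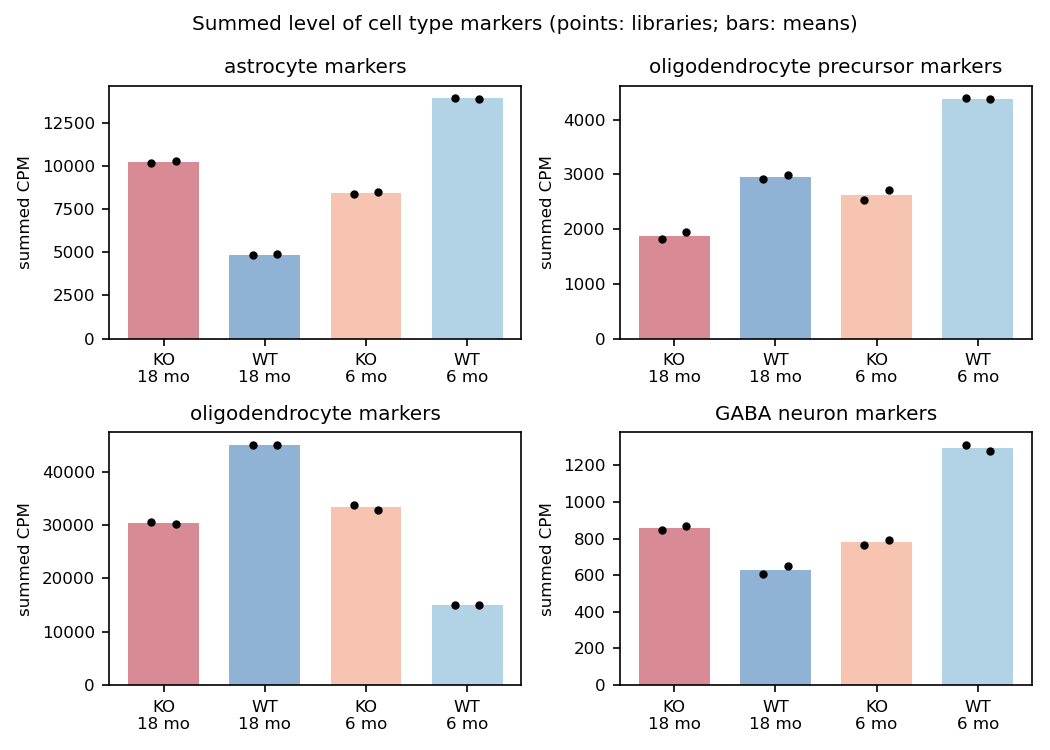
Summed CPM of the astrocyte, oligodendrocyte precursor, oligodendrocyte and GABA neuron marker lists (y axis) in KO and WT at 18 months and KO and WT at 6 months (x axis). Points are libraries and bars are means of 2. Astrocyte markers were highest in WT at 6 months and lowest in WT at 18 months, and oligodendrocyte markers had the reverse order.

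The subunits called moved in both directions at 18 months and only down in KO at 6 months. Of all genes tested, 14.7% were called higher and 17.4% lower in KO at 18 months, and 19.2% and 19.6% at 6 months. At 18 months Gria1 and Gria2 were higher in KO than in WT (1.77-fold and 1.94-fold), while Gria3, Gria4, Grik3 and Grik4 were lower (1.46 to 1.90-fold). At 6 months no subunit was higher in KO, and Gria1, Gria2, Gria3, Grik3, Grik4 and Grik5 were lower, with folds between 1.27 and 3.20. Gria1 and Gria2 therefore changed sign between the ages, and Gria3, Grik3 and Grik4 were lower in KO at both. For Grik4 the call at 6 months was lost in several alternatives, among them DESeq2 (adjusted p = 0.128). Grik1 did not pass the test in any comparison with all 8 libraries.

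Gria2 was the most read subunit in every library. It had 611 and 532 CPM in KO and 311 and 279 CPM in WT at 18 months, against 402 and 370 CPM in KO and 597 and 611 CPM in WT at 6 months. Both KO libraries lay above both WT libraries at 18 months and below them at 6 months. KO over WT came to 0.96 on the log2 scale at 18 months (SE 0.0667, edgeR adjusted p = 9.16e-11) and to -0.65 at 6 months (SE 0.0671, edgeR adjusted p = 2.89e-08). As an interaction term, the genotype effects at the 2 ages differed by 1.60 on the log2 scale (SE 0.0946, edgeR adjusted p = 1.27e-12).

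Gria1 encodes GluA1, a subunit brought to synapses in long-term potentiation of pyramidal cells. It had 30.2 and 29.9 CPM in KO and 17.2 and 16.8 CPM in WT at 18 months, and 38.7 and 42.4 CPM in KO and 105 and 98.4 CPM in WT at 6 months. WT at 6 months stood far above the other groups and WT at 18 months lowest, with no overlap between groups. KO over WT gave a log2 fold change of 0.83 (SE 0.104, edgeR adjusted p = 1.18e-06) at 18 months and -1.33 (SE 0.089, edgeR adjusted p = 1.79e-11) at 6 months. Its interaction of 2.15 (SE 0.137, edgeR adjusted p = 4.91e-12) was the largest of the 9 subunits.

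Gria4 encodes GluA4, the subunit named above for fast-spiking interneurons, and oligodendrocyte precursors transcribe it too. Its levels were 63.9 and 55.9 CPM in KO and 103 and 103 CPM in WT at 18 months, and 70.3 and 69.0 CPM in KO and 82.6 and 77.6 CPM in WT at 6 months. KO was below WT at both ages without overlap, yet the test was passed at 18 months alone. There KO over WT was -0.78 on the log2 scale, with SE 0.0748 and edgeR adjusted p = 1.74e-08. At 6 months it was -0.20 (SE 0.0823, edgeR adjusted p = 0.0557), a value that passed with library totals alone in place of TMM (edgeR adjusted p = 0.0177) and ranged up to 0.273 in other settings. The 2 genotype effects differed by -0.58 (interaction, SE 0.111, edgeR adjusted p = 0.000174), in the opposite direction to Gria1, Gria2 and Gria3.

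Gria3 encodes GluA3 and lies on the X chromosome. It had 14.05 and 16.05 CPM in KO and 23.1 and 21.1 CPM in WT at 18 months, and 24.3 and 20.1 CPM in KO and 58.9 and 55.4 CPM in WT at 6 months. KO was lower without overlap at both ages, and WT at 6 months stood above the other groups. It fell 1.46-fold at 18 months (log2 -0.55, SE 0.126, edgeR adjusted p = 0.00155) and 2.57-fold at 6 months (log2 -1.36, SE 0.119, edgeR adjusted p = 1.52e-09), and the interaction was 0.82 (SE 0.174, edgeR adjusted p = 0.000546).

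**Figure D2:**
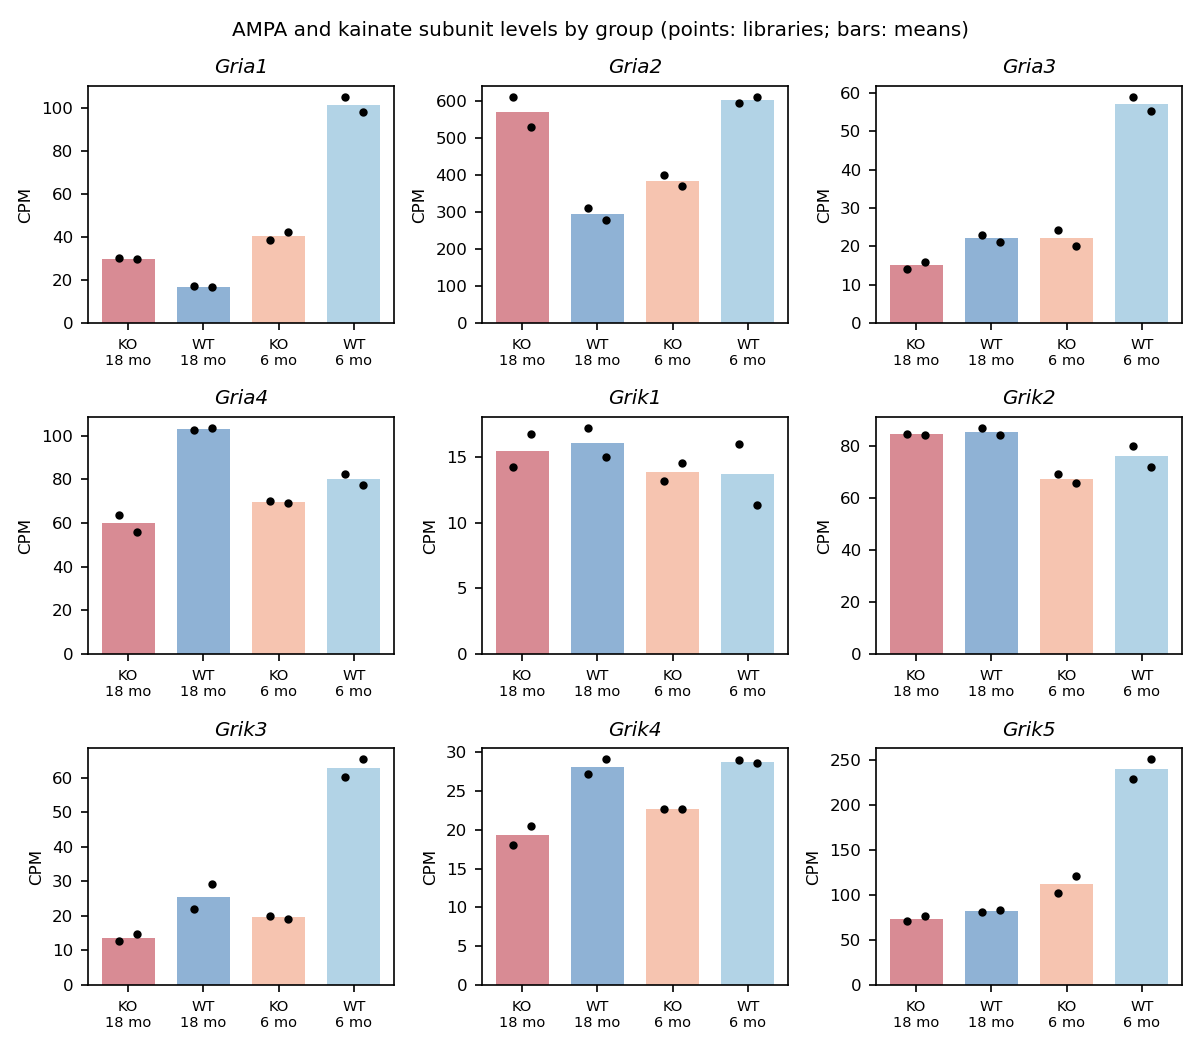
Levels in CPM (y axis, from 0, one panel per gene) of the 9 subunit genes in KO and WT at 18 months and KO and WT at 6 months (x axis). Points are libraries and bars are means of 2. Gria2 in KO at 18 months (611 and 532 CPM) lay close to WT at 6 months (597 and 611 CPM), while Gria1, Gria3, Grik3 and Grik5 stood highest in WT at 6 months.

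Among the low-affinity kainate subunits, Grik3 was lower in KO at both ages, and neither Grik1 nor Grik2 passed the genotype test at either age. Grik3 encodes GluK3, which is found in neurons and in oligodendrocyte precursors. It had 12.7 and 14.7 CPM in KO and 21.9 and 29.2 CPM in WT at 18 months, and 20.0 and 19.2 CPM in KO and 60.2 and 65.3 CPM in WT at 6 months. Every KO library lay below every WT library of its age. The gene fell 1.90-fold at 18 months (log2 -0.93, SE 0.133, edgeR adjusted p = 6.96e-06) and 3.20-fold at 6 months (log2 -1.68, SE 0.128, edgeR adjusted p = 1.5e-10). The effect was larger at 6 months (interaction 0.75, SE 0.187, edgeR adjusted p = 0.00239).

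Grik2, which encodes GluK2, the main channel-forming kainate subunit of the forebrain, had 85.0 and 84.5 CPM in KO and 87.0 and 84.3 CPM in WT at 18 months (log2 -0.01, SE 0.0711, edgeR adjusted p = 0.905), and 69.3 and 66.0 CPM in KO and 80.3 and 72.1 CPM in WT at 6 months (log2 -0.17, SE 0.0802, edgeR adjusted p = 0.0954). The groups overlapped at 18 months and lay apart at 6 months. With library totals alone the value at 6 months passed the test (log2 -0.22, adjusted p = 0.0308). Grik1, which encodes GluK1, a subunit of interneurons, had the fewest reads, with 14.2 and 16.7 CPM in KO and 17.2 and 15.0 CPM in WT at 18 months, and 13.2 and 14.6 CPM in KO and 16.0 and 11.4 CPM in WT at 6 months. Its groups overlapped at both ages, with log2 fold changes of -0.05 at 18 months (SE 0.15, edgeR adjusted p = 0.842) and 0.02 at 6 months (SE 0.178, edgeR adjusted p = 0.942). With 1116 Grik1 reads over 8 libraries these standard errors were the largest of the family in the genotype comparisons, so a small difference would not have been detectable.

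Of the high-affinity subunits, Grik5 was lower in KO at 6 months and Grik4 at both ages. Grik5 encodes GluK5, the widely expressed partner of GluK2, and had 70.8 and 76.5 CPM in KO and 81.0 and 83.4 CPM in WT at 18 months, and 103 and 121 CPM in KO and 229 and 251 CPM in WT at 6 months. WT at 6 months stood far above the other groups, and the genotypes lay close at 18 months without overlap. It fell 2.14-fold at 6 months (log2 -1.10, SE 0.0754, edgeR adjusted p = 2.5e-11), whereas KO over WT was -0.16 at 18 months on the log2 scale, with SE 0.079 and edgeR adjusted p = 0.125. The interaction was 0.94 (SE 0.109, edgeR adjusted p = 1.55e-07).

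Grik4 encodes GluK4, best known from hippocampal CA3 pyramidal cells. It had 18.0 and 20.5 CPM in KO and 27.2 and 29.1 CPM in WT at 18 months, and 22.7 and 22.7 CPM in KO and 29.0 and 28.6 CPM in WT at 6 months. KO lay below WT at both ages without overlap. It fell 1.47-fold at 18 months (log2 -0.56, SE 0.113, edgeR adjusted p = 0.000443) and 1.27-fold at 6 months (log2 -0.34, SE 0.124, edgeR adjusted p = 0.0309). The call at 6 months did not hold with DESeq2 (adjusted p = 0.128), when genes of low count were kept (0.113) and without either library of KO at 6 months (0.123 and 0.138), of WT at 6 months (0.0986 and 0.0808) or of WT at 18 months (0.0557 and 0.0521). The interaction was not called (-0.21, SE 0.167, edgeR adjusted p = 0.343).

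**Figure D3:**
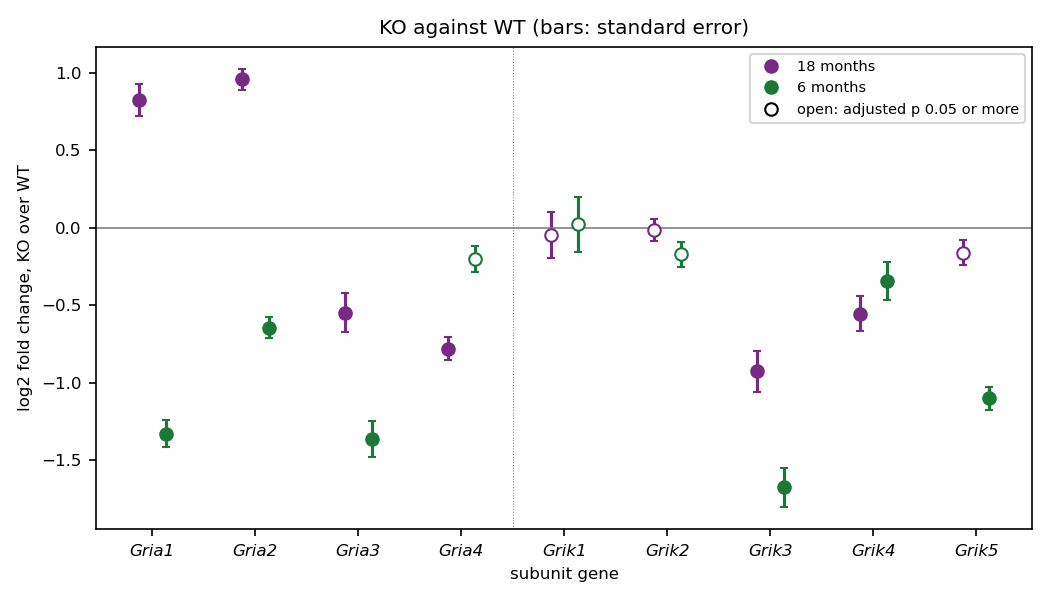
Log2 fold change of KO over WT (y axis) of each subunit gene (x axis) at 18 months and at 6 months, with standard errors as bars. Filled points passed the edgeR test at an adjusted p under 0.05 and open points did not. Gria1 and Gria2 lie above 0 at 18 months (0.83 and 0.96) and below 0 at 6 months (-1.33 and -0.65).

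Counted over the family, 2 of 9 subunits were higher and 4 lower in KO at 18 months. In that comparison 14.7% of the 18205 genes tested were called higher and 17.4% lower (32.1% in all), and the median log2 fold change was -0.16 over the 9 subunits and 0.00 over all genes. At 6 months edgeR called 0 subunits higher and 6 lower. DESeq2 called 0 higher and 5 lower, and at an unadjusted p under 0.05 the counts were 0 and 8. The background there was 19.2% higher and 19.6% lower (38.8% in all), and the medians were -0.65 over the subunits and 0.00 over all genes. Libraries of the genotypes did not overlap for 66.6% of all genes tested at 18 months and for 66.8% at 6 months, so the lack of overlap noted for single subunits is common in these data. The 2 genotype comparisons share no library. At both ages Gria3, Grik3 and Grik4 were called lower, Grik4 at 6 months by edgeR but not by DESeq2. The interaction was called for 6 of 9 subunits (Grik2 passed too with library totals alone, at edgeR adjusted p = 0.0111), 5 positive and 1 negative, against 39.1% of all genes (18.4% positive and 20.7% negative).

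Several lists of cell type markers moved with these groups. Of the 16 astrocyte markers 15 were higher and 1 lower in KO at 18 months (median log2 1.03), and 1 was higher and 15 lower at 6 months (median -0.86). These signs are those of Gria1 and Gria2. Astrocyte markers summed to 10216 ± 53.7 CPM in KO and 4854 ± 32.9 CPM in WT at 18 months, and to 8438 ± 55.5 CPM in KO and 13912 ± 25.5 CPM in WT at 6 months (SD, n = 2 each). All 12 markers of oligodendrocyte precursors were lower in KO at 18 months (median -0.69), and 10 were lower and 2 higher at 6 months (median -1.36). Gria3, Grik3 and Grik4 were lower at both ages too, with the limit given above for Grik4 at 6 months. The lists of general and excitatory neuron markers, given below, also held more genes lower than higher at both ages. The precursor markers summed to 1878 ± 92.6 CPM in KO and 2953 ± 62.6 CPM in WT at 18 months, and to 2619 ± 129 CPM in KO and 4383 ± 17.7 CPM in WT at 6 months. All 16 oligodendrocyte markers were lower in KO at 18 months (median -0.61) and higher at 6 months (median 1.17). They summed to 30370.5 ± 264 CPM in KO and 45075 ± 33.8 CPM in WT at 18 months, and to 33339.5 ± 622 CPM in KO and 15037 ± 33.8 CPM in WT at 6 months. Of 10 general neuron markers 1 was higher and 5 lower in KO at 18 months (median -0.66), and 0 were higher and 5 lower at 6 months (median -0.44). Map2, a cytoskeletal gene, carried 271 CPM in KO and 223 CPM in WT of their sum at 18 months. The other 9, a split made after seeing the data, summed to 90.7 ± 2.33 CPM in KO and 133 ± 3.01 CPM in WT at 18 months, and to 196 ± 0.82 CPM in KO and 357 ± 6.60 CPM in WT at 6 months. Of 11 GABA neuron markers 2 were higher and 2 lower at 18 months (median -0.44), and 0 were higher and 9 lower at 6 months (median -1.63). Of 12 microglial markers 0 were higher and 11 lower at 18 months (median -1.49), and 3 were higher and 0 lower at 6 months (median 0.39). Of 10 pericyte and smooth muscle markers 7 were higher and 1 lower at 18 months (median 0.83), and 5 were higher and 2 lower at 6 months (median 0.20). Of 11 tested parvalbumin interneuron markers 4 were higher and 3 lower at 18 months (median -0.18). At 6 months 4 were higher and 5 lower (median -0.79). Of 11 tested excitatory neuron markers the counts were 2 and 4 (median -0.95), then 0 and 4 (-0.07). Of 10 endothelial markers they were 2 and 1 (0.20), then 1 and 3 (-0.09). For the lists with 0 in a direction, DESeq2 gave 0 in that direction too. So did an unadjusted p under 0.05, except that 2 excitatory neuron markers were higher at 6 months. The part of any of these cell types in the subunit differences was not tested.

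The genotype effect common to the 2 ages was taken from a model with age and genotype as separate terms, over all 8 libraries. It called 3 subunits lower (Gria3, Grik3 and Grik4) and 0 higher with edgeR, against 2.42% of all genes lower and 0.692% higher (3.11% in all). At an unadjusted p under 0.05 the counts were 5 lower and 0 higher, and DESeq2 called 5 lower and 0 higher. Grik3 fell 2.45-fold (log2 -1.30, SE 0.174, edgeR adjusted p = 0.0082), Gria3 1.95-fold (log2 -0.97, SE 0.172, edgeR adjusted p = 0.0233) and Grik4 1.36-fold (log2 -0.45, SE 0.0951, edgeR adjusted p = 0.0428). Gria1 (log2 -0.29, SE 0.388) and Gria2 (0.15, SE 0.299), with opposite effects at the 2 ages, had the widest errors. The call for Grik4 was lost without any 1 of the 8 libraries (edgeR adjusted p between 0.0943 and 0.164). That for Gria3 was lost without either library of KO at 6 months (0.103 and 0.0767), either of WT at 6 months (0.0657 and 0.0742) or KO replicate 1 at 18 months (0.0525). Both were also lost with library totals alone (0.0545 for Gria3 and 0.0628 for Grik4). The call for Grik3 was kept in the 14 alternatives run, at adjusted p up to 0.0462.

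The age comparison asks how the subunits differ between old and adult animals of the same genotype. In WT, 1 subunit was higher and 5 lower at 18 than at 6 months (background 28.2% higher and 30.8% lower, 59.0% in all, with no overlap of libraries for 77.4%). Gria1 showed the largest difference, 6.00-fold lower (log2 -2.59, SE 0.098, edgeR adjusted p = 1.2e-16). Grik5 fell 2.92-fold (edgeR adjusted p = 1.45e-14), Gria3 2.60-fold (2.85e-10), Grik3 2.41-fold (2.16e-09) and Gria2 2.05-fold (2.52e-12). Gria4 rose 1.29-fold (log2 0.36, SE 0.0784, edgeR adjusted p = 0.000345). Grik4 had a log2 fold change of -0.03 (edgeR adjusted p = 0.863). That of Grik2 was 0.17 (edgeR adjusted p = 0.0677), and it passed with RLE scaling (0.0359), without a filter (0.0388), with a replicate block (0.0385) and without WT replicate 1 at 6 months (0.0222). That of Grik1 was 0.22 (edgeR adjusted p = 0.27), and without WT replicate 1 at 6 months it was 0.50 and passed (0.0427). All these values rest on WT at 6 months, which is also part of the genotype comparison at that age.

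In KO, 2 subunits were higher and 5 lower at 18 months (background 13.8% higher and 17.9% lower, 31.7% in all, with no overlap of libraries for 67.3%). Gria2 rose 1.48-fold (log2 0.57, SE 0.0662, edgeR adjusted p = 5.1e-07) and Grik2 1.25-fold (log2 0.32, SE 0.0741, edgeR adjusted p = 0.00162). Grik5 fell 1.52-fold (edgeR adjusted p = 2.1e-06), Gria3 1.48-fold (0.0017), Grik3 1.44-fold (0.00686), Gria1 1.35-fold (0.00106) and Gria4 1.16-fold (0.0394). The call for Gria4 was lost in 8 of 15 alternatives, at adjusted p up to 0.373, those for Gria3 (0.0669) and Grik3 (0.0573) without KO replicate 1 at 6 months, and that for Grik3 (0.0947) also without KO replicate 1 at 18 months. Of the 16 astrocyte markers, 10 were higher and 0 lower at 18 months in KO (0 lower with DESeq2, 1 at an unadjusted p under 0.05), and in WT 1 was higher and 15 lower. Microglial markers were lower in 11 of 12 cases in KO and higher in 3 in WT. Whether these bear on the subunits was not tested.

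**Figure D4:**
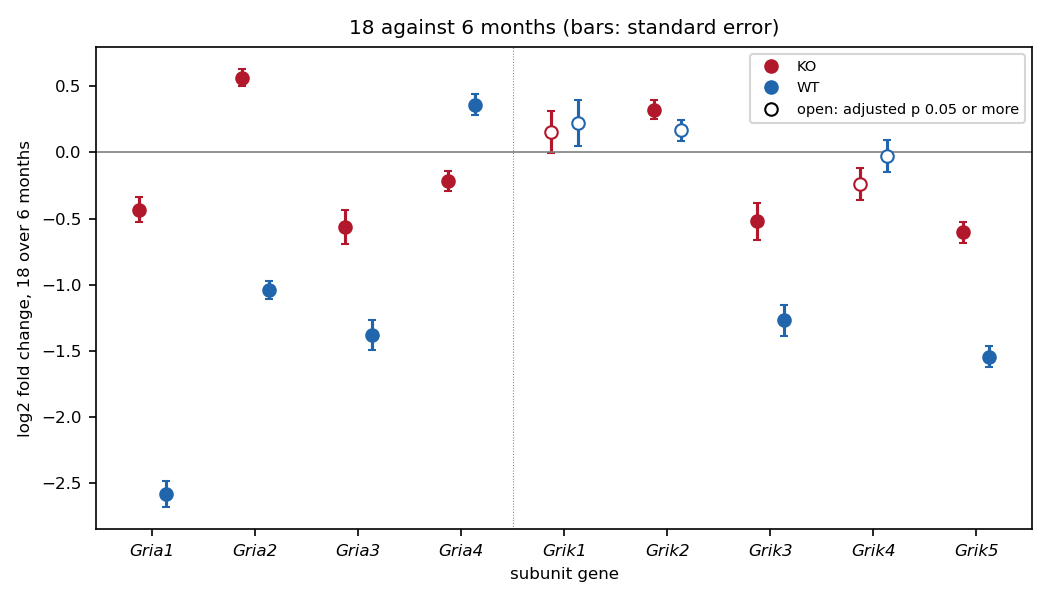
Log2 fold change of 18 over 6 months (y axis) of each subunit gene (x axis) in KO and in WT, with standard errors as bars. Filled points passed the edgeR test at an adjusted p under 0.05. Gria2 lies at 0.57 in KO and -1.04 in WT, and Gria4 at -0.22 in KO and 0.36 in WT.

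Levels of different genes can be compared only per length of transcript, so CPM were divided by the length of the merged exons in kb (5.17 kb for Grik5 to 15.55 kb for Gria2). On that scale Gria2 led in 3 groups, with 36.7 ± 3.60 CPM per kb in KO at 18 months, 19.0 ± 1.46 in WT at 18 months and 24.8 ± 1.43 for KO at 6 months (SD, n = 2 each). In WT at 6 months Grik5 led with 46.4 ± 3.06 CPM per kb, ahead of Gria2 with 38.9 ± 0.655. Per kb of the longest transcript, a length tried after seeing the data, the libraries overlapped, with 56.3 and 61.8 for Grik5 and 57.6 and 58.9 for Gria2. Grik5 was also second in both KO groups, with 14.2 ± 0.787 at 18 months and 21.7 ± 2.56 at 6 months. In WT at 18 months Gria4 (16.3 ± 0.0999) and Grik5 (15.9 ± 0.324) came next to Gria2, and by the longest transcript their order was the reverse (18.9 ± 0.116 for Gria4 and 20.2 ± 0.412 for Grik5).

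The lower ranks were less settled. Grik1, Gria3 and Grik3 took the last 3 places in both KO groups, at 1.53 to 2.30 CPM per kb at 18 months and 2.06 to 2.25 at 6 months. Libraries of Grik3 and Gria3 overlapped in both KO groups, those of Grik3 and Grik1 in KO at 6 months, and those of Grik3 and Gria1 and of Grik1 and Gria3 in WT at 18 months. In WT at 6 months Grik3 (7.00), Gria3 (5.80) and Grik2 (5.75) stood close together, with Gria3 and Grik2 overlapping. Gria1 held the third place in WT at 6 months (16.8 ± 0.789) and the seventh in WT at 18 months (2.81 ± 0.0465). By the longest transcript these lower places changed: Grik3 was last in both KO groups and in WT at 18 months, and Grik1 was sixth in KO at 18 months and eighth in KO at 6 months. The choice of length does not affect comparisons of 1 gene between groups.

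The makeup of the AMPA family can be read within a library, free of any scaling between libraries. Gria2 made up 69.6 ± 1.05% of AMPA subunit reads per kb in KO and 46.9 ± 1.82% in WT at 18 months, against 55.3 ± 1.40% in KO and 52.4 ± 1.55% in WT at 6 months (SD, n = 2 each). Gria4 took 18.0 ± 0.205% in KO and 40.5 ± 1.8% in WT at 18 months, against 24.7 ± 0.469% in KO and 17.1 ± 0.535% in WT at 6 months. So Gria4 had its largest share in WT at 18 months, where that of Gria2 was smallest. Gria1 took 9.46 ± 0.737% in KO and 6.97 ± 0.153% in WT at 18 months, against 15.0 ± 1.44% in KO and 22.7 ± 0.774% in WT at 6 months. Gria3 took at most 7.98% in any library. With 2 libraries against 2 an exact two-sided permutation test cannot give a p below 0.33, so these shares are descriptions.

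In the kainate family Grik5 had the largest share per kb in every library. On raw reads Grik2 led at 18 months, with a mean of 41.0% against 35.6% for Grik5 in KO and 36.1% against 34.6% in WT. Grik5 made up 51.4 ± 0.101% of kainate subunit reads per kb in KO and 49.2 ± 0.130% in WT at 18 months, against 62.1 ± 2.94% in KO and 70.3 ± 1.98% in WT at 6 months. Grik2 took 23.1 ± 1.33% in KO and 20.0 ± 0.911% in WT at 18 months, against 14.7 ± 1.54% in KO and 8.73 ± 0.992% in WT at 6 months. Both high-affinity subunits together came to 63.1 ± 0.557% in KO and 63.8 ± 0.227% in WT at 18 months, and to 73.1 ± 2.17% in KO and 77.6 ± 1.64% in WT at 6 months. Summed per kb, the 4 AMPA subunits reached 52.7 ± 4.38 CPM in KO and 40.3 ± 1.55 CPM in WT at 18 months, and 44.8 ± 1.45 CPM in KO and 74.2 ± 0.947 CPM in WT at 6 months. The 5 kainate subunits reached 27.7 ± 1.48 CPM in KO and 32.3 ± 0.744 CPM in WT at 18 months, and 34.8 ± 2.47 CPM in KO and 66.0 ± 2.49 CPM in WT at 6 months. Both families thus had their highest sum in WT at 6 months.

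**Figure D5:**
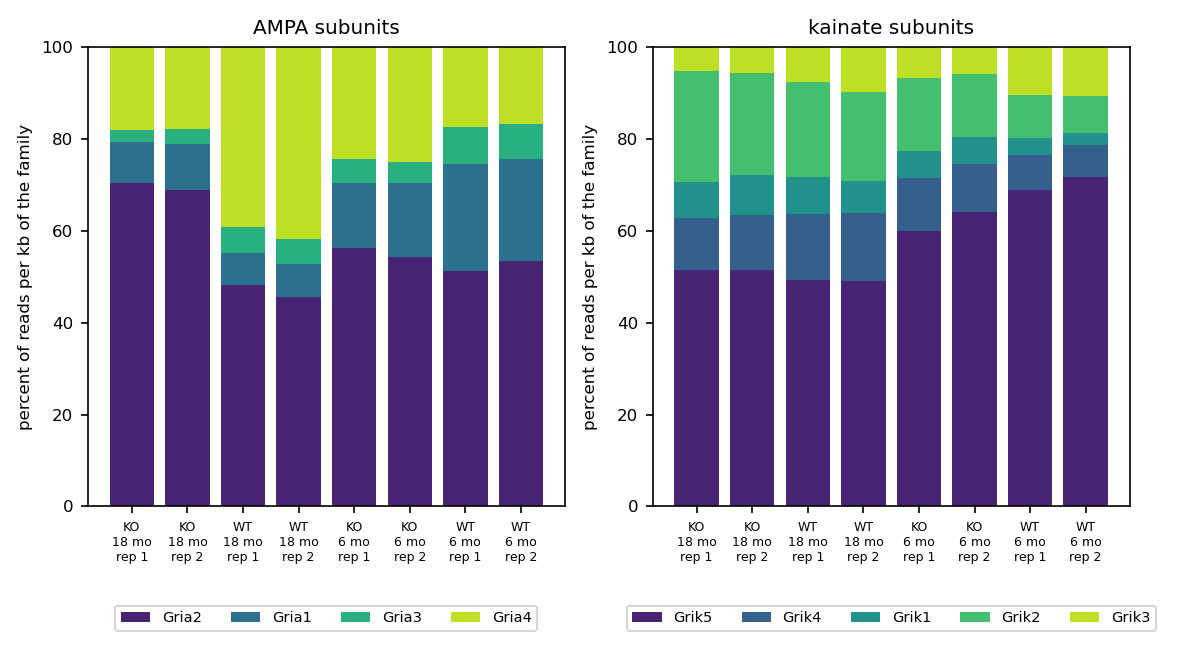
Share of each subunit in the reads per kb of its family, in percent (y axis), for the 8 libraries (x axis), AMPA subunits at left and kainate subunits at right. Gria4 takes 40.5% of AMPA reads per kb in WT at 18 months, the largest share it has in a group, and Grik5 takes 70.3% of kainate reads per kb in WT at 6 months.

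The genes lie on 8 chromosomes. In mm10, Gria1 is on chromosome 11 (57011387 to 57330244), Gria2 on 3 (80681450 to 80802835), Gria3 on X (41400854 to 41678601), Gria4 on 9 (4417896 to 4796234), Grik1 on 16 (87895900 to 88290265), Grik2 on 10 (49094833 to 49788766), Grik3 on 4 (125490700 to 125714173), Grik4 on 9 (42518135 to 42944493) and Grik5 on 7 (25009849 to 25072346). They are long genes, from 62.5 kb for Grik5 to 693.9 kb for Grik2. No annotated gene overlaps their exons on the opposite strand, and the small RNA genes within exons of Gria2, Gria3, Gria4 and Grik4 had at most 6 reads over the 8 libraries.

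Dnmt1 methylates cytosine before guanine (CG), so the start regions of 3 subunits are shown with each CG in capitals. They are Gria2, which was higher in KO at 18 months and lower at 6 months, and Grik3 and Grik4, which were lower at both ages. The call for Grik4 at 6 months was not kept in all settings. The sequences are 300 bases long, from RefSeq on GRCm38.p6, and run 5′ to 3′ on the strand of the gene, from 250 bases before to 50 bases after its start. That of Gria2 spans chr3:80802786-80803085 on the minus strand, that of Grik3 chr4:125490446-125490745 on the plus strand and that of Grik4 chr9:42944322-42944621 on the minus strand.
Gria2: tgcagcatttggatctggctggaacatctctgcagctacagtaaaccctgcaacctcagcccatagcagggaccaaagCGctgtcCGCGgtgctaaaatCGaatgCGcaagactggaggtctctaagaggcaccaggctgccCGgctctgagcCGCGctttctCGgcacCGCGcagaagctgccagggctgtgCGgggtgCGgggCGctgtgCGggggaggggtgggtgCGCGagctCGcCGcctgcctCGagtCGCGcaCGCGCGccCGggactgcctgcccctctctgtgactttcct
Grik3: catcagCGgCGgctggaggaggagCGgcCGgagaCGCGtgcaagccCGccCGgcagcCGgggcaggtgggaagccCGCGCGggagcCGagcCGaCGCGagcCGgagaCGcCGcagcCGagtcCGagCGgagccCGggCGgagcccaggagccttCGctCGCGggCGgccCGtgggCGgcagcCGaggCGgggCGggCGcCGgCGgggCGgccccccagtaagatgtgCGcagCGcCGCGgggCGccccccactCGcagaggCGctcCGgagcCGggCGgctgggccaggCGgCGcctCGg
Grik4: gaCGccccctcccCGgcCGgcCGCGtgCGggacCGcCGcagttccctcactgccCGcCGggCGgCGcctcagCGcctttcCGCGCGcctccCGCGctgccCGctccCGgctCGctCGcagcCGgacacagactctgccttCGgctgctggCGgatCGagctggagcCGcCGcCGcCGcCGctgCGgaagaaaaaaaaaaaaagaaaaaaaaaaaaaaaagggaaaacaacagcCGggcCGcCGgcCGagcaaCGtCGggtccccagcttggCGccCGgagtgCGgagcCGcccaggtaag
The Gria2 window holds 26 CG pairs, that of Grik3 50 and that of Grik4 42. The median over 32851 RefSeq windows of the same length is 7, and 83.1% of the windows have fewer than that of Gria2, 99.1% fewer than that of Grik3 and 97.0% fewer than that of Grik4. Of the other subunits with a window in the same table, Grik2 has 26, Gria4 17 and Grik5 10. The letters GGGCGG, a core of the motif of Sp1, searched on both strands and each holding 1 of the CG pairs counted above, occur 7 times for Grik3, 2 times for Grik4 and Grik5 each, and 0 times for Gria2, Gria4 and Grik2, while 35.7% of all windows hold them at least once. A match of letters is a description of the window, and methylation was not analysed here.

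The genes that work with these receptors were examined as lists. Of all genes tested, 14.7% were called higher and 17.4% lower in KO at 18 months. At 6 months the shares were 19.2% and 19.6%, and all list counts below stand against these shares. Of 14 auxiliary subunits of AMPA receptors, which set gating and surface expression, 0 were higher and 6 lower in KO at 18 months and 0 higher and 11 lower at 6 months by edgeR (higher at an unadjusted p under 0.05, 1 and 0, and with DESeq2, 0 and 0). At 18 months Cacng4, a transmembrane regulatory protein (TARP), fell 1.87-fold to 31.7 CPM in KO against 59.3 CPM in WT, Shisa7 1.92-fold and Gsg1l 2.21-fold, the last a call lost without KO replicate 1 at 18 months (edgeR adjusted p = 0.0784). Gsg1l stood at only 2.05 CPM in KO and 4.59 CPM in WT at 18 months. At 6 months Cacng4 fell 2.54-fold, Shisa7 2.29-fold and Shisa8 5.37-fold (6.64 CPM in KO against 35.6 CPM in WT). The median log2 fold change of the list was -0.46 at 18 months and -1.08 at 6 months. Cacng4 is also a gene of oligodendrocyte precursors.

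Of 9 assembly and secretory partners, 0 were higher and 4 lower at 18 months (higher at an unadjusted p under 0.05, 0, and with DESeq2, 0), and 1 higher and 2 lower at 6 months. The counts at 6 months were near the shares of all genes. Olfm2, of the olfactomedin family of AMPA receptor partners, fell 1.75-fold at 18 months and 2.99-fold at 6 months. At 18 months Olfm1 (1.39-fold) and Abhd12 (1.17-fold) were lower too, and at 6 months Cpt1c, a protein of the endoplasmic reticulum that binds GluA1, fell 1.28-fold while Sacm1l, a lipid phosphatase, rose 1.29-fold. Abhd12 did not pass with library totals alone (adjusted p = 0.384) or without KO replicate 1 (0.206), WT replicate 1 (0.0628) or WT replicate 2 (0.102) at 18 months, and the calls of Olfm1 (0.0719), Cpt1c (0.0523) and Sacm1l (up to 0.132) were lost without 1 library of their comparison.

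The 5 tested partners of kainate receptors held 0 higher and 1 lower at 18 months and 0 higher and 4 lower at 6 months (higher at an unadjusted p under 0.05, 0 and 0, and with DESeq2, 0 and 0). Neto1, an auxiliary subunit, fell 1.49-fold at 18 months (edgeR adjusted p = 0.0198, 0.0883 with DESeq2 and up to 0.118 without a library of that age) and 2.20-fold at 6 months. At 6 months the secreted C1ql2 fell 4.93-fold, to a low level of 2.28 CPM in KO against 11.3 CPM in WT. The actin-binding Actn2 fell 8.61-fold, to 1.36 CPM in KO against 11.7 CPM in WT. Of 20 anchoring and trafficking genes 1 was higher and 10 lower at 18 months, and 3 were higher and 13 lower at 6 months. The kinase gene Camk2a (2.03-fold, also on the excitatory neuron marker list), the immediate early gene Arc (1.45-fold) and the scaffold gene Dlg2 (1.33-fold) were lower at 18 months. Camk2b (3.87-fold) and the scaffold gene Grip2 (3.21-fold) were lower at 6 months, while the scaffold gene Dlg1 rose 1.70-fold to 308 CPM in KO against 181 CPM in WT.

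RNA editing changes messages of Gria2 and of kainate subunits. The editing list held Adar, Adarb1 and Adarb2, taken as a gene family and not by editing activity. Adarb1, the enzyme of the GluA2 site, fell 2.43-fold at 6 months to 25.3 CPM in KO, against 61.2 CPM in WT. Adarb2 fell 1.62-fold at 18 months and 2.35-fold at 6 months, and Adar 1.29-fold at 6 months, a call lost without KO replicate 1 at 6 months (adjusted p = 0.124). In all, 0 of 3 were higher and 1 lower (Adarb2) at 18 months, and 0 higher and 3 lower at 6 months. Higher at an unadjusted p under 0.05 were 0 and 0, and with DESeq2 0 and 0. Editing itself cannot be read from gene counts. Grid1, which encodes a delta receptor subunit, fell 2.22-fold at 6 months.

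Other receptor families give the frame for these counts. The shares of all genes called were 14.7% higher and 17.4% lower at 18 months, and 19.2% and 19.6% at 6 months. Of 7 NMDA receptor subunits 2 were higher and 4 lower in KO at 18 months, and 0 higher and 6 lower at 6 months (higher at an unadjusted p under 0.05, 0, and with DESeq2, 0). Grin2c rose 1.63-fold at 18 months to 351 CPM in KO against 215 CPM in WT, and fell 2.21-fold at 6 months to 406 CPM in KO against 896 CPM in WT. Grin2b had the same signs (1.45-fold higher and 2.38-fold lower). Grin2a fell 2.69-fold at 18 months (2.60 CPM in KO against 6.89 CPM in WT) and Grin1 4.73-fold at 6 months. Of 12 tested GABA-A subunits 5 were higher and 3 lower at 18 months and 0 higher and 9 lower at 6 months (higher at an unadjusted p under 0.05, 0, and with DESeq2, 0). Gabrb1 rose 2.10-fold at 18 months and fell 1.67-fold at 6 months, and Gabrg1 rose 2.02-fold and Gabra2 2.05-fold at 18 months. Gabra5 fell 9.64-fold at 6 months, to 1.22 CPM in KO against 11.9 CPM in WT. Of 7 tested metabotropic glutamate receptors 1 was higher (Grm7, 1.17-fold, lost with DESeq2 at adjusted p = 0.169 and at up to 0.350 without 1 library) and 1 lower (Grm5, 1.51-fold) at 18 months. At 6 months 0 were higher and 6 lower (higher at an unadjusted p under 0.05, 0, and with DESeq2, 0), with Grm5 1.95-fold, Grm2 5.19-fold and Grm4 10.2-fold lower. Grm2 stood there at 2.58 CPM in KO and 13.4 CPM in WT, and Grm4 at 4.51 CPM in KO and 45.9 CPM in WT. Subunits that were higher in KO at 18 months and lower at 6 months were thus present in 3 receptor families. No difference between families was tested.

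The genes whose log2 CPM followed each subunit most closely over the 8 libraries were found among 9487 genes with a mean of at least 10 CPM. The 8 libraries are 4 pairs, so Pearson's r is given as a description. Gria1 went with Chst2 and Ctnnd2 (r = 0.998 each), Gria2 with Acsl3 (0.992) and Adgrb3 (0.989), Gria3 with Susd5 and Dpp6 (0.994 each) and Gria4 with Rpl7 (0.973) and Uba2 (0.961). Grik3 went with Acan (0.996) and Lrp11 (0.990), Grik4 with Uqcrh (0.988) and Abca7 (0.979), Grik5 with Wdr13 (0.997) and Traf4 (0.996), and Grik2 with Wdr11 (0.983) and Cds1 (0.976). The lowest values were those of Grik1, with Nmrk1 (0.930) and Map2k5 (0.922). Acsl3, a fatty acid ligase, had 531 CPM in KO and 307 CPM in WT at 18 months and 360 CPM in KO and 524 CPM in WT at 6 months. KO at 18 months and WT at 6 months were its highest groups and WT at 18 months its lowest, as for Gria2. That likeness follows from its choice by r.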

How the data were processed

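RNA of sorted cortical cells was sequenced in 8 libraries (2 for each of 4 groups of genotype and age), and the authors deposited whole-number counts of reads per Ensembl gene, not normalized. Per the submitters' processing notes CASAVA 1.8.2, STAR 2.5.2a, featureCounts 1.5.0-p1 and the mm10 build were used. For the annotation release, strandedness and multi-mapped reads, the settings were not given in the sources used here. Names and exon lengths came from GENCODE M21, which named 99.8% of the 55573 IDs. The counts were analysed with edgeR 4.0.16 in R 4.3.3: genes were kept by filterByExpr with a minimum count of 10 (18205 genes), scaled by TMM and fitted with a quasi-likelihood model of 4 group means, with 4 residual degrees of freedom and a common biological coefficient of variation of 0.0539. Comparisons were contrasts of this model, and an additive model of age and genotype was fitted too. P-values were adjusted by the Benjamini-Hochberg method over all genes tested, with a threshold of 0.05. Standard errors are the log2 fold change over the root of F. CPM are counts per 1e+06 of the scaled library total. The edgeR test was also tried on simulated counts, built from the observed means and the fitted spread. Those counts were drawn independently, so they cannot show how the test behaves when the libraries of a group share a pool. Alternatives were DESeq2 1.42.0, other scalings, no filter, a replicate block and omission of each library. The replicate numbers were taken not to pair the samples, as correlations of deviations were at most 0.0758, under a set threshold of 0.1. Named genes were all 9 subunits, up to 3 called genes with the smallest p per list and genotype comparison, and the 2 genes most like each subunit. Some genes that this rule names are not reported here. The members and lists were chosen with earlier results of these data known.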

Additional observations from a re-analysis of the deposited data

Results flagged for a closer look

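For the genes below the effect of genotype differed between the ages: the edgeR interaction test (KO over WT at 18 months, less KO over WT at 6 months, log2 scale) had an adjusted p under 0.05. Among the subunits the interaction was 2.15 for Gria1, 1.60 for Gria2, 0.94 for Grik5, 0.82 for Gria3, 0.75 for Grik3 and -0.58 for Gria4. Dnmt1 itself had an interaction of 0.30 (edgeR adjusted p = 0.0202, up to 0.101 in other settings). Each of these tests uses all 4 groups. Astrocyte marker sums were highest in WT at 6 months and lowest in WT at 18 months.

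Among genes of the other receptor families, the interaction was 2.94 for Grm4, 1.85 for Grin2c, 1.81 for Gabrb1, 1.79 for Grin2b, 1.53 for Gabrg1, 1.43 for Grin1, 1.37 for Gabra2 and 1.30 for Grid1. Among auxiliary subunits and partners it was 1.67 for Shisa8, 1.61 for C1ql2, 0.78 for Olfm2, 0.45 for Cacng4, -0.45 for Olfm1 and -0.49 for Sacm1l. Among anchoring and trafficking genes it was 2.40 for Grip2, 1.08 for Camk2b, -0.74 for Dlg2, -0.77 for Camk2a, -0.86 for Arc and -1.13 for Dlg1. On the editing list, Adarb1 and Adarb2 had values of 0.87 and 0.53.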

How the results depend on the processing

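No called subunit changed direction in any alternative run. At 18 months and in the WT age comparison each called subunit kept its call throughout. The number of subunits called in KO with age was 4 to 7 with 1 library left out (7 in the full data). Across both ages 3 were called, against 1 with library totals alone, 1 with the replicate block, 5 with DESeq2 and 1 to 2 with 1 library left out. Of all genes, 5844 were called at 18 months (3737 to 6355 with 1 library left out, lowest without WT replicate 2 at 18 months), 5775 in KO with age (3255 to 6285, and 3736 with DESeq2) and 566 across both ages (146 to 376, 1458 without a filter, 274 with the replicate block and 1063 with DESeq2). The replicate block called more genes at 6 months (7421 against 7067) and at 18 months (6322 against 5844), and fewer across both ages as given above. Whether the replicate numbers share a small component was not tested. The block also called Gria4 at 6 months (edgeR adjusted p = 0.032) and Grik2 with age in WT (0.0385), the last called with RLE scaling, without a filter and without WT replicate 1 at 6 months too. Library totals alone moved the median of all genes by 0.14 at 18 months and 0.19 in the interaction (log2), and gave 4268 genes higher and 1848 lower at 18 months, against 2679 and 3165 with TMM. In KO with age it gave 3839 and 2543, against 2512 and 3263, in the interaction 4769 and 2651, against 3358 and 3768, and across both ages 134 and 271, against 126 and 440. Uncalled values that changed sign with library totals alone were Grik1 at 6 months (-0.031), at 18 months (0.093), in the interaction (0.12) and across both ages (0.03), Grik2 at 18 months (0.13), and Dnmt1 at 18 months (0.040) and in KO with age (0.080). Without a filter they were Grik2 at 18 months (0.011), Grik4 with age in WT (0.023), Dnmt1 in KO with age (0.020) and Grik1 across both ages (0.012), and with RLE scaling Grik4 with age in WT (0.000327). With 1 library left out, Grik1 ran from -0.20 to 0.29 at 6 months, from -0.17 to 0.069 at 18 months, from 0.0073 to 0.50 with age in WT, from -0.34 to 0.15 in the interaction and from -0.11 to 0.069 across both ages. Likewise Grik2 ran from -0.018 to 0.017 at 18 months, Grik4 from -0.078 to 0.036 with age in WT, Dnmt1 from -0.031 to 0.013 in KO with age, and across both ages Gria1 from -0.57 to 0.030 and Gria2 from -0.060 to 0.40. Gria2 made up 84.4, 67.4, 74.4 and 71.6% of AMPA raw reads in KO and WT at 18 months and KO and WT at 6 months, and 74.0, 52.0, 60.4 and 56.9% per kb of the longest transcript. Grik4 and Grik5 together made up 44.9, 46.4, 57.0 and 63.7% of kainate raw reads and 59.2, 60.5, 70.4 and 77.2% per kb of the longest transcript. The cause of these shifts was not tested.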

Other observations

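Grik2, the longest of the 9 genes, holds 6 annotated genes in its introns on its own strand, which share no exon bases with it. Their reads as a share of these reads plus those of Grik2 were 20.7% (Wilson 95% interval 18.6 to 22.9) and 17.1% (15.1 to 19.4) in KO at 18 months, and 16.8% (14.4 to 19.5) and 14.1% (12.3 to 16.1) in WT at 18 months. At 6 months they were 16.7% (14.1 to 19.6) and 12.5% (10.1 to 15.3) in KO, and 6.33% (4.55 to 8.76) and 7.31% (5.30 to 9.99) in WT. WT at 6 months was thus lowest, with no library of another group inside its range. The intervals cover counting error only. By edgeR 0 of the 5 that could be tested were called in KO against WT at 18 months (adjusted p between 0.211 and 0.724), with 0 at an unadjusted p under 0.05 and 0 with DESeq2. At 6 months edgeR called 3 of 5 higher in KO, against 19.2% of all genes, and DESeq2 called 0. Those called by edgeR were Gm47017 (log2 1.14, adjusted p = 0.0239), Gm47016 (1.59, adjusted p = 0.0464) and Gm47022 (1.23, adjusted p = 0.0295). For 18 against 6 months in WT, edgeR called 4 of 5 higher, against 28.2% of all genes, and DESeq2 called 4. In KO edgeR called 2 of 5 higher with age, against 13.8% of all genes, and DESeq2 called 0.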
